A study of Mus musculus with 11 samples.

Results

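Chemokine and chemokine receptor genes were read from a map of contacts between the genome and lamin B1 in mouse oligodendrocyte lineage cells. The members are the rows of the deposited table whose symbol begins with Ccl, Cxcl, Ccr or Cxcr and a digit, or is Cx3cl1, Xcl1 or Xcr1. They are 61 of 21534 gene regions, carry 54 distinct symbols, and comprise 43 ligand regions and 18 receptor regions. A region is the gene with its flanks (a median of 10.0 kb before and 2.0 kb after it, over the 55 members that hold the RefSeq gene of their symbol), so promoter, exons, introns and UTRs share 1 value. Members put in order along each chromosome fell into 28 groups separated by gaps of over 1 Mb. Of these, 7 held 3 or more members, 3 held a pair and 18 held a lone member.

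The assay was DamID-seq, in which the bacterial methylase Dam is fused to lamin B1 (LMNB1), a filament protein at the inner face of the nuclear envelope. Dam methylates adenine within GATC, so DNA near the lamina gains the mark, and untethered Dam reports how open a stretch of DNA is to any free enzyme. Oligodendrocyte precursor cells came from the cortex of C57BL/6 mice at postnatal day 7, and all libraries are titled WT and carry the cell type label of primary OPCs. Every culture received a lentiviral vector for Dam-LMNB1 or for Dam for 1 day. Cells then spent 72 h either in proliferation medium (OPC below, the labels' PF) or in oligodendrocyte differentiation medium (OL below, the labels' T3). The 3 OPC Dam-LMNB1 libraries are numbered 8, 9 and 10, and the 3 OL Dam-LMNB1 libraries are 18, 19 and 20. Each score sets 1 of these against the pooled Dam libraries of its own medium, 2 for OPC and 3 for OL. The labels do not tie libraries to cultures or animals. The p-values therefore cover the library-to-library spread alone, which may be technical, and they leave out variation between Dam libraries.

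Chemokines are small secreted proteins that steer migrating cells, above all leukocytes. They are sorted by the spacing of their first cysteines into CC, CXC, XC and CX3C families, and they signal through G protein-coupled receptors named after the same families. Most arose by repeated gene duplication and still lie side by side. In the brain, microglia, astrocytes and endothelium are well known sources, and Cxcl12 with its receptor Cxcr4, and Cxcl1 with Cxcr2, are known to act on oligodendrocyte precursors. Genes at the lamina tend to be silent, but a DamID score measures position and not RNA.

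A score above 0 is read as more methylation by Dam-LMNB1 than by Dam, and one below 0 as less. The sources used here give no log base for the score and read depth is unknown, so differences are in score units, with no folds. Values of single libraries follow the order 8, 9, 10 in OPC and 18, 19, 20 in OL. Adjusted p-values are Benjamini-Hochberg values of limma over all 21534 regions, called at 0.05. OL library 18 stood apart from the other libraries in its spread over all regions, with an SD of 1.46 against 1.53 to 1.59, and 24 members scored above 0 in it against 17 to 20 in the others. Without it, 6 members lost or gained a call between media (Ccl2, Ccl3, Ccl4, a Ccl19 copy, Cxcl2 and Xcr1). The difference moved by over 1.5 times or changed sign in 20 of the 36 members not called and in 0 of the 25 called. Of the members, 21 overlap another member and share fragments with it, and neighbours share a stretch of chromatin, so members of a cluster are not independent.

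Most chemokine genes lay on the side of the score away from lamin B1, as did most regions of any kind. In OPC, 19 of the 61 members were above 0 (31.1%), 40 were below 0 (65.6%) and 2 passed neither test. The shares of all regions were 25.5% above and 71.4% below. In OL, 16 were above 0 (26.2%), 36 below (59.0%) and 9 neither, against 25.9% and 70.9% of all regions. The median member score was −1.07 in OPC and −0.88 in OL, beside −1.54 and −1.47 over all regions. All 6 libraries were above 0 in 17 members and below 0 in 37, and 7 members had both signs. Ccr2 was the highest member and Cxcr5 the lowest in OPC, with means above 99.2% and 11.1% of all regions.

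**Figure D1:**
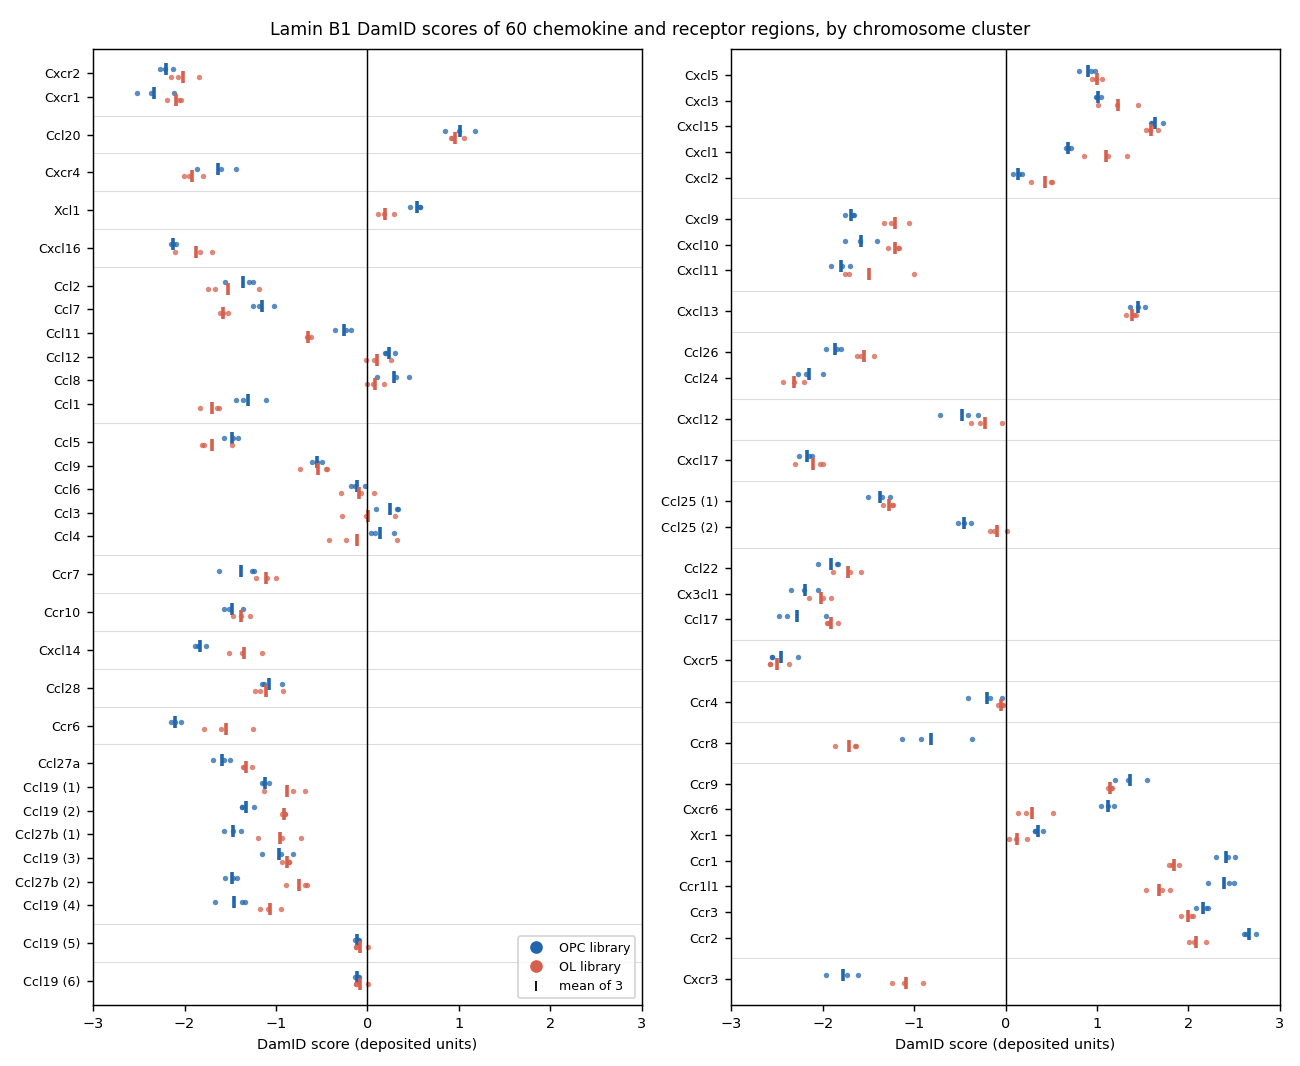
Scores of 60 member regions in the 6 Dam-LMNB1 libraries (x axis, deposited score units), with 1 point per library, a bar at the mean of 3, and grey lines between chromosome clusters. Numbers in brackets count regions that carry the same symbol in chromosome order. The chromosome 9 receptors from Ccr9 to Ccr2 and the chromosome 5 ligands from Cxcl5 to Cxcl2 lie right of 0 in every library, while the Ccl27 and Ccl19 copies lie left of it or close to it.

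Between conditions, 14 members were higher in OL, 11 were lower and 36 did not pass the test. Over all regions 23% were higher and 10.9% lower. In 16 members all 3 OL scores lay above all 3 OPC scores, against 33.5% of all regions, and in 13 members below, against 15.4%. The median difference was 0.067 over members and 0.097 over all regions. Forcing each library to the same mean and SD turned the split of 14 higher and 11 lower into 10 and 13, with a member median of −0.016, and over all regions it moved the share of calls that were higher from 67.9% to 50.5%. With 1 region per symbol, 11 of 54 were higher and 11 lower. In the authors' deposited table, 3.14% of regions had an adjusted p under 0.05, and among members only Ccr2 did (0.0497).

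The calls are given next by role, and no difference between roles was tested. Over all regions, 25.5% were above 0 in OPC and 71.4% below, and 23% were higher in OL and 10.9% lower. Of the 43 ligand regions, 11 were above 0 in OPC (25.6%) and 30 below (69.8%), and 12 were higher in OL (27.9%) and 4 lower (9.3%), all near those shares. Of the 18 receptors, 8 were above 0 in OPC (44.4%) and 10 below (55.6%), and 2 were higher in OL (11.1%) and 7 lower (38.9%). All 13 CXC ligands kept their side of 0 in both media, 6 above and 7 below, with 5 higher in OL and 0 lower by limma. By the authors' adjusted p, 0 were higher and 0 lower. At an unadjusted p under 0.05, limma gave 5 higher and the authors' values 4, with 0 lower by either. The 28 CC ligand regions had 4 above 0 and 22 below in OPC, with 7 higher in OL and 3 lower. The 11 CC receptors had the highest median score in OPC (1.36), with 6 above 0 and 5 below. The 8 receptors of a single chromosome 9 cluster hold 6 of the 7 receptor calls that were lower.

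**Figure D2:**
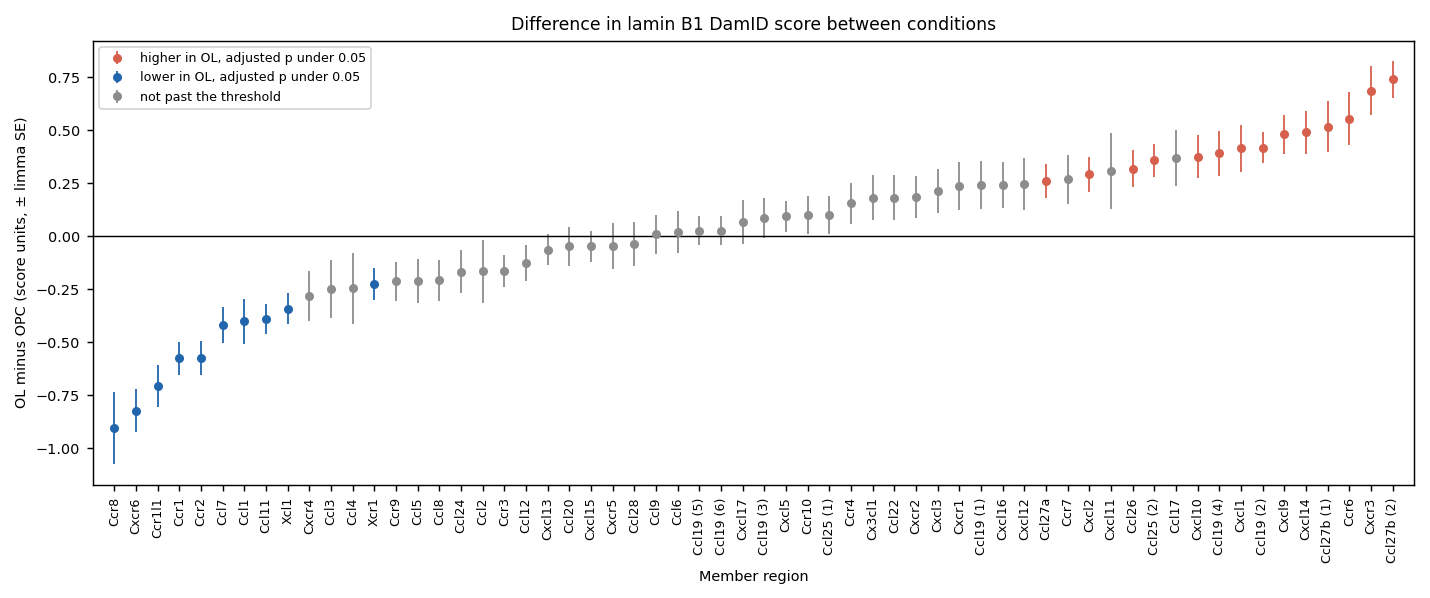
OL minus OPC for 60 member regions (y axis, score units; bars are the limma standard error, n = 3 and 3), in order of size along the x axis. The 5 largest falls drawn are all receptors, from Ccr8 to Ccr2, and the largest rise is a Ccl27b region at 0.74.

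The receptor cluster on chromosome 9 (chr9:123757210-124111140 from Ccr9 to Ccr2, mm10) held the members with the highest scores. Its genes include Ccr9, Cxcr6, Xcr1, Ccr1, Ccr1l1, Ccr3 and Ccr2, and all 8 of its receptors were above 0 in both media. Ccr2, the receptor through which Ccl2 draws monocytes, scored 2.61, 2.63 and 2.74 in OPC and 2.06, 2.19 and 2.01 in OL. Its OPC mean was above 99.2% of all regions, and the OL libraries did not overlap the OPC libraries. The difference was −0.57 ± 0.079 (limma SE, n = 3 and 3), with an adjusted p of 0.00131.

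The start of Ccr2 is shown because it is the promoter of the highest-scoring member. Capitals mark GATC, the only letters that Dam can methylate. The 250 bases before the start site (chr9:124101933-124102182, plus strand, RefSeq, GRCm38.p6) are:
Ccr2: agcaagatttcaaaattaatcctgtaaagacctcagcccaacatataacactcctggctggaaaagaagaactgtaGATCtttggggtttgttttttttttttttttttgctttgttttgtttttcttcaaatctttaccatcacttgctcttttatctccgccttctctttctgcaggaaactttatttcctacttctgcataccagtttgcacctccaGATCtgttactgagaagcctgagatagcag
They hold 2 such sites. Of the 46 member promoters matched in the RefSeq table (250 bases before to 50 after the start, 39 symbols), 22 held a GATC, which is 47.8%, beside 48.0% of all 32851 promoters of that length. A region score pools such sites over 12.8 to 42.5 kb.

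Ccr1 and Ccr1l1, neighbouring paralogs whose regions overlap by 3.75 kb, were both lower in OL. Ccr1, an inflammatory receptor of myeloid cells, had 2.30, 2.51 and 2.43 in OPC and 1.82, 1.903 and 1.79 in OL. Ccr1l1, its close relative, had 2.22, 2.44 and 2.50 in OPC and 1.71, 1.54 and 1.7996 in OL. Their differences were −0.58 (adjusted p = 0.00128) and −0.71 (adjusted p = 0.00142), and neither showed overlap between the media. Reads of such paralogs may have been split between them in ways that no source used here describes.

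The largest fall of the cluster was at Cxcr6, a receptor of tissue T cells. It scored 1.12, 1.182 and 1.05 in OPC and 0.52, 0.22 and 0.14 in OL, so it stayed above 0 in every library and the media did not overlap. The difference was −0.82 ± 0.10 (limma SE, n = 3 and 3), with an adjusted p of 0.000797. Xcr1, known from cross-presenting dendritic cells, was the lowest gene of the cluster, with 0.41, 0.32 and 0.32 in OPC and 0.12, 0.032 and 0.23 in OL. Its difference of −0.22 (adjusted p = 0.0434) was lost when OPC library 8, 9 or 10 or OL library 18 or 19 was left out (adjusted p up to 0.129) and without a variance trend.

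Ccr9 and Ccr3 were less clear. Ccr9, the gut-homing receptor, had 1.34, 1.54 and 1.195 in OPC and 1.17, 1.12 and 1.15 in OL, a difference of −0.21 (adjusted p = 0.0961). Without OPC library 10 the adjusted p was 0.0445. Ccr3, the eotaxin receptor of eosinophils, had 2.21, 2.19 and 2.08 in OPC and 2.05, 1.92 and 2.03 in OL, a difference of −0.16 (adjusted p = 0.116). For both genes the libraries did not overlap, but the test was not passed with all 6.

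Regions of other genes there were lower as well. Fyco1, an autophagy adaptor whose region overlaps Cxcr6 and Xcr1, went from 0.66 to 0.053 (−0.61, adjusted p = 0.0016). Of the 8 nearest regions outside the cluster, 7 were lower in OL, and their median difference of −0.53 was close to the −0.51 of the 8 receptors. Their median OPC score was 1.02 against 2.23 for the receptors. The stretch of regions with means above 0 ran over 15 regions in OPC, from Slc6a20b to Ppp2r3d, the last region of the chromosome, and over 13 in OL, where it ended at Nlrp4g. Just before it lay Sacm1l, which went from −0.063 to −0.71 (−0.65, adjusted p = 0.000687).

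**Figure D3:**
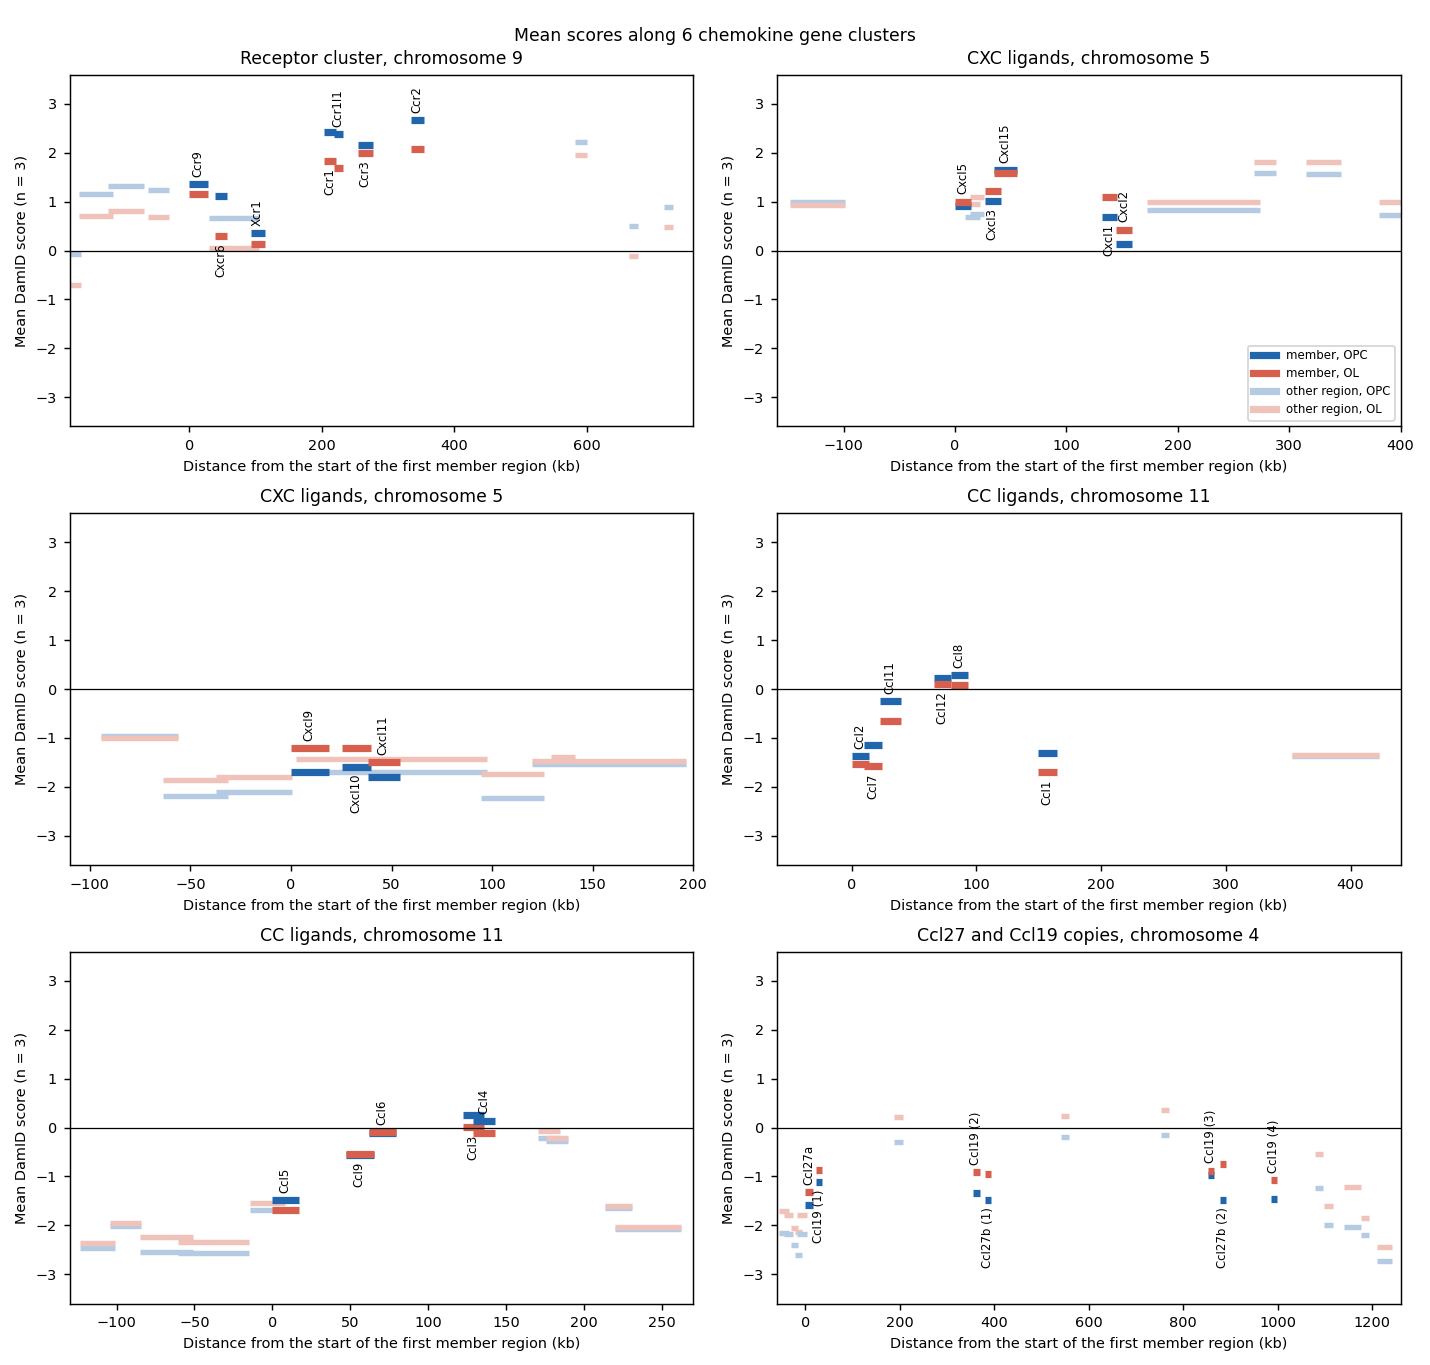
Mean score per region (y axis, n = 3 libraries) along 6 clusters (x axis, kb from the first member region), with members in dark and neighbouring non-member regions in pale colours. Bar length is the region's extent. All 7 chromosome 9 receptors drawn lie above 0 with OL under OPC, and the Ccl2 to Ccl1 genes rise from below 0 to just above it and fall back.

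Ccr8 lies on the same chromosome as the lone member of its group (chr9:120082132-120096906) and had the largest fall of all members. This receptor of regulatory and type 2 helper T cells scored −0.93, −0.37 and −1.14 in OPC and −1.64, −1.65 and −1.86 in OL. The OPC libraries were spread widely, but all lay above the OL libraries, and the difference was −0.91 ± 0.17 (limma SE, n = 3 and 3), with an adjusted p of 0.00487. Its neighbours had a median difference near 0 (−0.015), and 3 of 10 were lower. One of these was Cx3cr1, the fractalkine receptor of microglia, directly upstream of it, with −0.81, −0.95 and −0.66 in OPC and −1.099, −1.29 and −1.26 in OL and a difference of −0.41 (adjusted p = 0.0115). The nearest region on the other side, Slc25a38, had a difference of 0.25 (adjusted p = 0.064).

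The other receptors were mostly far below 0. Cxcr5, the follicular homing receptor, was the lowest member, with −2.56, −2.55 and −2.27 in OPC and −2.37, −2.58 and −2.58 in OL, and it did not pass the test between media (−0.045, adjusted p = 0.769). Cxcr2, which binds Cxcl1 and its relatives and is known on oligodendrocyte precursors, scored −2.27, −2.13 and −2.21 in OPC and −1.84, −2.15 and −2.08 in OL. The media overlapped, and the difference was 0.18 (adjusted p = 0.179), or 0.094 without OL library 18. Its neighbour Cxcr1 was as low, at −2.33 ± 0.20 in OPC and −2.10 ± 0.085 in OL (mean ± SD, n = 3).

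Cxcr4, the Cxcl12 receptor, scored far below 0 while the genes after it scored far above. It scored −1.43, −1.61 and −1.87 in OPC and −1.95, −2.01 and −1.797 in OL. The difference of −0.28 (adjusted p = 0.0931) did not pass the test, but it did under both rescalings of the libraries and without OPC library 10 (adjusted p down to 0.0315). The 5 regions upstream by coordinate had means from −1.52 to −0.17 in OPC, and the 5 beyond it from 1.59 to 2.16. Cxcr4 was therefore 2.35 below the median of its 10 neighbours, the largest such gap among the clusters in OPC.

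Cxcr3 and Ccr6 were below 0 and rose in OL. Cxcr3, the receptor of interferon-induced ligands on activated T cells, scored −1.97, −1.62 and −1.74 in OPC and −0.90, −1.11 and −1.24 in OL, with no overlap and a difference of 0.69 ± 0.12 (limma SE, n = 3 and 3), with an adjusted p of 0.00327. Ccr6, the Ccl20 receptor of Th17 cells, had −2.04, −2.11 and −2.15 in OPC and −1.26, −1.60 and −1.78 in OL, a difference of 0.56 ± 0.13 (limma SE, n = 3 and 3), with an adjusted p of 0.0105. The neighbours of each had smaller median differences, 0.22 and 0.17. Ccr7 (−1.38 ± 0.21 in OPC), Ccr10 (−1.48 ± 0.11) and Ccr4 (−0.20 ± 0.19; mean ± SD, n = 3) did not pass the test between media.

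The CXC ligands Cxcl5, Cxcl3, Cxcl15, Cxcl1 and Cxcl2 form a cluster on chromosome 5 (chr5:90749297-90907938, mm10) that was above 0 in every library. Most of these proteins recruit neutrophils through Cxcr2. Cxcl15, known from lung, was the highest, with 1.59, 1.60 and 1.73 in OPC and 1.67, 1.54 and 1.57 in OL, and did not pass the test (−0.046, adjusted p = 0.648). Cxcl2 was the lowest, with 0.15, 0.079 and 0.17 in OPC and 0.50, 0.28 and 0.50 in OL, and rose by 0.29 (adjusted p = 0.0219). That call was lost without OPC library 8 or 9 or OL library 18 or 20 (adjusted p up to 0.0788). Cxcl1 had 0.66, 0.68 and 0.72 in OPC and 1.33, 0.85 and 1.12 in OL, with every OL library above every OPC library, and the difference was 0.41 ± 0.11 (limma SE, n = 3 and 3), with an adjusted p of 0.0181. Without OPC library 9 its adjusted p was 0.0505.

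Cxcl5 and Cxcl3 had means of 0.90 ± 0.096 and 1.01 ± 0.028 in OPC (mean ± SD, n = 3) and differences of 0.094 (adjusted p = 0.345) and 0.21 (adjusted p = 0.134), the latter 0.10 without OL library 18. Between them lie the platelet chemokines Ppbp and Pf4, which the naming rule leaves out. Pf4 scored 0.81, 0.68 and 0.78 in OPC and 1.15, 1.14 and 0.97 in OL and rose by 0.33 (adjusted p = 0.0106), while Ppbp differed by 0.26 (adjusted p = 0.0621). The cluster sat inside a run of 17 regions above 0 in both media, from Alb to Parm1, over 1.175 Mb. Its 10 nearest outside regions had a higher median OPC score (1.47) than the 5 members (0.90). That gap depended on the number of neighbours. With 10 outside regions on each side, their median was 0.903, beside 0.905 for the members.

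Short stretches upstream of 5 ligand genes are shown because these genes are textbook targets of NF-κB, the inflammatory transcription factor. In OPC, Cxcl10 was below 0 and the others were above it. Only promoters with a match were taken, so a match in each was fixed beforehand. Capitals mark matches to the κB consensus GGG-R-N-YYY-CC (R is A or G, Y is C or T, N is any base). It was searched on both strands with overlapping matches kept. Each runs 5′ to 3′ on the gene's strand (RefSeq, GRCm38.p6). The loci are chr5:90891149-90891208 for Cxcl1, chr5:90903777-90903836 for Cxcl2, chr5:90786003-90786062 for Cxcl3, chr5:92348958-92349018 for Cxcl10 (minus strand, the others plus) and chr1:83116661-83116720 for Ccl20.
Cxcl1: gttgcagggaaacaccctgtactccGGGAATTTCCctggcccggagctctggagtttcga
Cxcl2: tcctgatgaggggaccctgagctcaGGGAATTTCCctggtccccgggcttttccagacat
Cxcl3: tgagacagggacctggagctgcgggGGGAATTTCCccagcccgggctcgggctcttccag
Cxcl10: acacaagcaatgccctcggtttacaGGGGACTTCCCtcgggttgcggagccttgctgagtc
Ccl20: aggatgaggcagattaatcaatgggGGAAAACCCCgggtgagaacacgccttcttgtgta
The first 3 carry the same 10 letters, 71, 97 and 73 bases before the start. In Cxcl10 a pair of matches overlap. The consensus was in 10 of the 46 member promoters (21.7%) and in 5.80% of all promoters of that length. Among member promoters it was in 5 of 17 whose region was above 0 in OPC and in 5 of 28 whose region was below. A match is a description of letters and not a measured binding site, and several promoters belong to paralogs.

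Cxcl9, Cxcl10 and Cxcl11, ligands of Cxcr3 that interferon induces, lie 1.41 Mb further along chromosome 5 (chr5:92319330-92373296) and were below 0 throughout. Cxcl9 scored −1.67, −1.66 and −1.76 in OPC and −1.25, −1.34 and −1.06 in OL, a difference of 0.48 ± 0.092 (limma SE, n = 3 and 3), with an adjusted p of 0.00505. Cxcl10, the highest of the 3 in OPC, had −1.41, −1.59 and −1.75 in OPC and −1.16, −1.175 and −1.29 in OL. Its difference of 0.38 (adjusted p = 0.0185) was lost with equal mean and SD and without OPC library 9 or 10 or OL library 19 (adjusted p up to 0.0615). Both were separated between media in every library.

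Cxcl11, which RefSeq lists as a transcribed pseudogene in this assembly, was the lowest of the 3 with −1.70, −1.91 and −1.79 in OPC and −1.003, −1.71 and −1.76 in OL. OL library 18 alone was above the OPC range, and the difference of 0.31 (adjusted p = 0.208) was 0.064 without it. The 3 genes sat in a run of 20 regions below 0 from G3bp2 to Ccng2, in which 5 of the 10 nearest regions were also higher in OL. Thus chromosome 5 held Cxcl clusters on both sides of 0 within 1.62 Mb. A further site, Cxcl13, the ligand of Cxcr5, was again above 0, with 1.36, 1.45 and 1.52 in OPC and 1.42, 1.32 and 1.403 in OL and a difference of −0.063 (adjusted p = 0.521).

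Cxcl12, which guides oligodendrocyte precursors through Cxcr4, was only a little below 0. It scored −0.30, −0.41 and −0.72 in OPC and −0.035, −0.38 and −0.28 in OL. The media overlapped and the difference was 0.25 (adjusted p = 0.148), or 0.15 without OL library 18. Cxcl14 (chr13:56286642-56306551), a broadly expressed CXC ligand, was further below with −1.85, −1.77 and −1.89 in OPC and −1.15, −1.37 and −1.52 in OL, and rose by 0.49 ± 0.10 (limma SE, n = 3 and 3), with an adjusted p of 0.00751. The median difference of its neighbours was 0.21. Cxcl16, the Cxcr6 ligand, and Cxcl17, a mucosal chemokine, had OPC means of −2.12 and −2.18 and differences of 0.24 (adjusted p = 0.113) and 0.067 (adjusted p = 0.634). Without OL library 18 these were 0.15 and 0.013.

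The monocyte chemoattractant cluster on chromosome 11 (chr11:82025576-82189812) rose and fell along its length. Ccl2, which attracts monocytes, was its lowest gene in OPC, with −1.25, −1.29 and −1.55 in OPC and −1.184, −1.67 and −1.74 in OL. The difference was −0.17 (adjusted p = 0.407) with OL library 18, and −0.34 with an adjusted p of 0.0498 without it. Ccl8, near the middle, was the highest in OPC, with 0.45, 0.31 and 0.10 in OPC and 0.18, 0.063 and 0.00012 in OL, and did not pass the test (−0.21, adjusted p = 0.124). In OPC the means ran −1.36, −1.15, −0.25, 0.23, 0.29 and −1.30 from Ccl2 through Ccl7, Ccl11, Ccl12 and Ccl8 to Ccl1. The 10 nearest regions, 5 on either side, had a median of −1.60, so the middle of the cluster stood above its surroundings.

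Of its 6 genes, 3 were lower in OL. Ccl7, a further monocyte attractant, had −1.02, −1.26 and −1.186 in OPC and −1.53, −1.61 and −1.58 in OL and a difference of −0.42 ± 0.086 (limma SE, n = 3 and 3), with an adjusted p of 0.00674. Ccl11, eotaxin, had −0.23, −0.35 and −0.18 in OPC and −0.62, −0.66 and −0.66 in OL, a difference of −0.39 (adjusted p = 0.00452). In both, no OL library reached the OPC range. Ccl1, the Ccr8 ligand, had −1.36, −1.44 and −1.11 in OPC and −1.63, −1.84 and −1.65 in OL and a difference of −0.40 (adjusted p = 0.0184), which was lost without OPC library 10 or OL library 19 (adjusted p up to 0.0605). The surrounding regions had a median difference of 0.057, with 1 of 10 higher and 2 lower.

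The Ccl5, Ccl9, Ccl6, Ccl3 and Ccl4 cluster lies 1.33 Mb further on (chr11:83523778-83666683), and 0 of its 5 genes passed the test between media with limma, adjusted or not, or by the authors' p. Ccl5, a T cell attractant, was the lowest, with −1.57, −1.42 and −1.47 in OPC and −1.79, −1.49 and −1.81 in OL. Ccl3, an inflammatory ligand of Ccr1, was the highest, with 0.089, 0.33 and 0.34 in OPC and 0.30, −0.011 and −0.28 in OL. Ccl4 was the single member whose mean changed sign, with 0.081, 0.035 and 0.30 in OPC and 0.32, −0.23 and −0.42 in OL (means 0.14 and −0.11). Their differences were −0.21 (adjusted p = 0.144), −0.25 (adjusted p = 0.184) and −0.25 (adjusted p = 0.273).

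The Ccl3 and Ccl4 results turned on OL library 18. At both genes it lay within or above the OPC range, and the other OL libraries lay below it. Without it the differences were −0.40 (adjusted p = 0.0325) for Ccl3 and −0.46 (adjusted p = 0.015) for Ccl4. The regions of these genes overlap by 6.80 kb, which is 50.2% of the shorter, so they are not separate measurements. Ccl9 and Ccl6 had OPC means of −0.55 and −0.12 and differences of 0.011 (adjusted p = 0.937) and 0.021 (adjusted p = 0.883). The members' median of −0.12 in OPC stood 1.73 above that of the neighbouring regions.

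The Ccl27 and Ccl19 copies on chromosome 4 (chr4:41767469-42766518) were all below 0, and 5 of 7 were higher in OL. Ccl27 attracts skin-homing T cells, and Ccl19 guides dendritic and T cells to lymph nodes through Ccr7. The stretch is duplicated in this strain, and the table gives the symbol Ccl19 to 6 regions and Ccl27b to 2. Only the region chr4:42752524-42766518 holds the gene that RefSeq calls Ccl19, and the others on this chromosome hold Gm12407, Gm2457 and Gm2564. Reads from near-identical copies cannot be assigned with certainty, and no source used here says how the authors placed them.

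How close the copies are can be seen in 100 aligned bases upstream of RefSeq starts of Ccl27a and Ccl27b (GRCm38.p6). These are the first 100 bases of the longest stretch aligned without a gap. The loci are chr4:41770363-41770462 (minus strand) for Ccl27a and chr4:42655013-42655112 (plus strand) for Ccl27b. The capital marks the 1 base that differs.
Ccl27a: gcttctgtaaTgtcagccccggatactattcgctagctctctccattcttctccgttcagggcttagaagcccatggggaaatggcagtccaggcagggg
Ccl27b: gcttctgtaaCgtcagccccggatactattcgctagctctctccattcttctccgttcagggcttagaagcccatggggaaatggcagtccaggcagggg
They are identical at 99 of 100 bases, and the 300-base promoters at 91.7%.

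The Ccl27b region at chr4:42645250-42658005 had the largest rise of all members. It scored −1.47, −1.43 and −1.56 in OPC and −0.89, −0.66 and −0.68 in OL, a difference of 0.74 ± 0.087 (limma SE, n = 3 and 3), with an adjusted p of 0.000682. The other Ccl27b region (chr4:42148091-42160846), which holds Gm13306 in RefSeq, had −1.47, −1.57 and −1.38 in OPC and −0.93, −1.201 and −0.73 in OL and rose by 0.52 (adjusted p = 0.0105). Neither overlapped between media. Ccl27a, the lowest of the cluster in OPC, scored −1.50, −1.57 and −1.68 in OPC and −1.36, −1.35 and −1.26 in OL. It rose by 0.26 (adjusted p = 0.0359), a call that was lost under both rescalings and without OPC library 9 or 10 or OL library 19 or 20 (adjusted p up to 0.172).

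The region of RefSeq Ccl19 scored −1.67, −1.33 and −1.37 in OPC and −1.17, −1.09 and −0.94 in OL and rose by 0.39 (adjusted p = 0.0217), a call that was lost under both rescalings and without OPC library 8 or OL library 20 (adjusted p up to 0.0917). Among the copies, chr4:42619724-42633714 was the highest region of the cluster in OPC, with −0.81, −1.15 and −0.94 in OPC and −0.94, −0.85 and −0.86 in OL, and did not pass the test (0.086, adjusted p = 0.504). The copies at chr4:42122386-42136376 and chr4:41789783-41803773 differed by 0.42 (adjusted p = 0.00395) and 0.24 (adjusted p = 0.12), the latter reaching an adjusted p of 0.0114 without OL library 18. The 2 Ccl19 regions on random chromosome 4 contigs had identical scores in each library, −0.097, −0.14 and −0.098 in OPC and 0.0018, −0.13 and −0.12 in OL, and add no independent information. All 10 regions flanking the cluster were also higher in OL, with a median difference of 0.39 beside the members' 0.39, as were the 3 Fam205a2 regions inside it.

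The remaining ligands stood singly or in small groups. Ccl22, Cx3cl1 and Ccl17 on chromosome 8 (chr8:94735683-94814036) were all far below 0, and 0 of 3 passed the test between media with limma (1, Ccl17, had an unadjusted p under 0.05; 0 by the authors' p). Cx3cl1, fractalkine, which neurons present to microglia, scored −2.20, −2.35 and −2.05 in OPC and −1.91, −2.16 and −1.99 in OL and differed by 0.18 (adjusted p = 0.204). Ccl22 was the highest of the 3, with −1.84, −2.05 and −1.83 in OPC and −1.59, −1.70 and −1.89 in OL, and Ccl17 the lowest in OPC, with −1.97, −2.48 and −2.39 in OPC and −1.94, −1.83 and −1.95 in OL. Both are Ccr4 ligands of dendritic cells. Ccl17 came close to the threshold (0.37, adjusted p = 0.0537) and passed it without OPC library 8 (adjusted p = 0.00856).

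Ccl20 and Xcl1, each the lone member of its group on chromosome 1, were above 0 in both media. Few CC ligand regions were above 0 in OPC (4 of 28), and Xcl1 is the only XC ligand among the members. Ccl20 scored 0.85, 1.17 and 1.01 in OPC and 1.05, 0.91 and 0.92 in OL, 1.26 above the median of its neighbours, with a difference of −0.047 (adjusted p = 0.712). Xcl1, lymphotactin, had 0.58, 0.47 and 0.57 in OPC and 0.18, 0.12 and 0.29 in OL, with every OL library below every OPC library and a difference of −0.34 ± 0.073 (limma SE, n = 3 and 3), with an adjusted p of 0.00825. Of the others, Ccl26 rose by 0.32 (adjusted p = 0.0218), which was lost under both rescalings and without OPC library 10 (adjusted p up to 0.0747), and Ccl24, whose region overlaps it, differed by −0.17 (adjusted p = 0.226). Ccl24 passed the test as lower under both rescalings (adjusted p down to 0.0265). Ccl28 differed by −0.035 (adjusted p = 0.812). The Ccl25 region at chr8:4339587-4362020 had −0.53, −0.45 and −0.38 in OPC and 0.0097, −0.12 and −0.17 in OL and rose by 0.36 (adjusted p = 0.00838), while the overlapping region at chr8:4315209-4350788 differed by 0.10 (adjusted p = 0.4).

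Members tended to sit where their neighbours sat. Over the 26 clusters on placed chromosomes, the median member score and the median score of the 10 nearest non-member regions (8 for the chromosome 9 receptors) had a Pearson's r of 0.76 in OPC, 0.72 in OL and 0.57 for the difference. These are descriptions across loci that share the same 6 libraries, with no test. Some neighbours overlap a member and share fragments with it, such as Rufy4 with Cxcr2 and Med11 with Cxcl16, which adds to the likeness. The sign in OPC was the same in 22 of 26 clusters, and Ccl20, Xcl1, Cxcr4 and Ccl28 were the exceptions. Because 71.4% of all regions were below 0 in OPC, many such matches would arise between unrelated regions. The median cluster lay 0.24 above its neighbours.

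**Figure D4:**
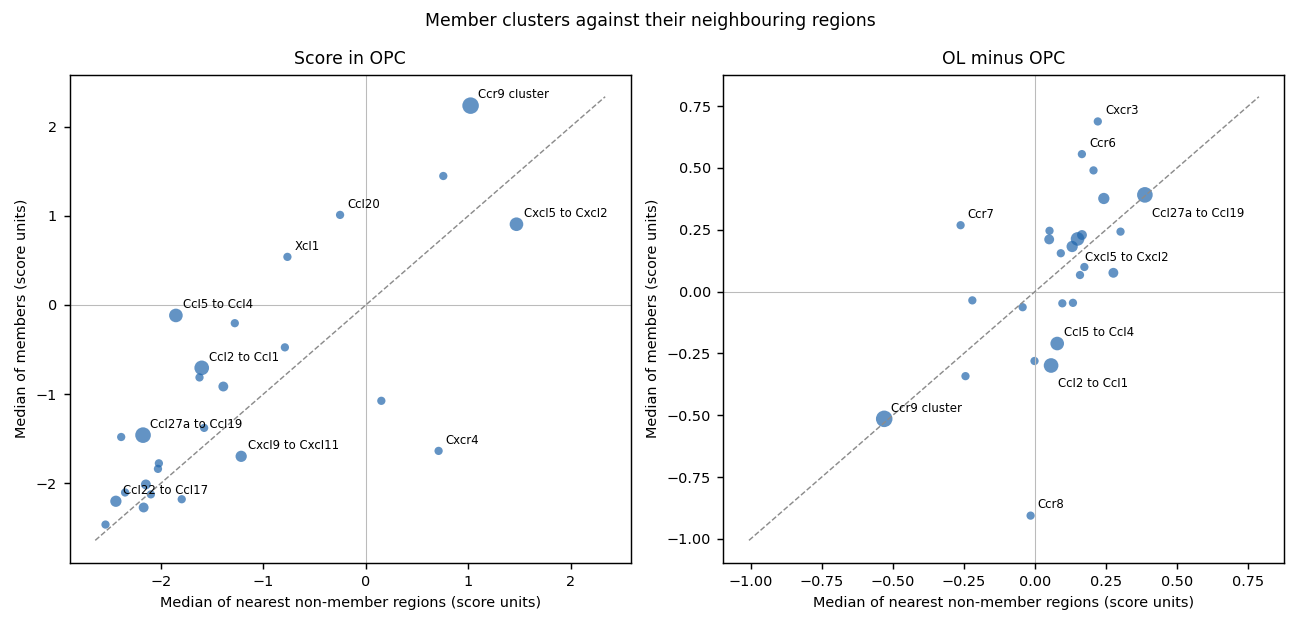
Median member score of 26 clusters (y axis) against the median of their nearest non-member regions (x axis), in OPC on the left and as OL minus OPC on the right, in score units, with point size growing with the number of members. Dashed lines mark equal values. The Ccr9 cluster lies 1.21 above the line on the left and 0.016 from it on the right, while Cxcr4 lies 2.35 below it on the left.

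Ligands and their receptors were set side by side for 14 textbook pairs. In OPC, 8 pairs lay on the same side of 0 and 6 on opposite sides. Of all members, 31.1% were above 0 and 65.6% below, and no expected count was worked out. On opposite sides were Ccl20 and Ccr6, Ccl25 and Ccr9, Cxcl13 and Cxcr5, Cxcl16 and Cxcr6, the Cxcl1 group and Cxcr2, and Ccl2 and Ccr2. Only Ccl2 was set beside Ccr2, and Ccl12 and Ccl8 of the Ccl2 cluster were above 0 in OPC (0.23 and 0.29). Xcl1 and Xcr1 were both above 0 in each medium and both lower in OL. Ccl1 and Ccr8 were both below 0 and both lower in OL. Cxcl9, Cxcl10 and Cxcr3 were all below 0 and all higher in OL, while Cxcl11, also below 0, was not called (0.31, adjusted p = 0.208). Other pairs parted, with a call for the receptor alone. Cxcr6 (−0.82) stood beside Cxcl16 (0.24), Ccr6 (0.56) beside Ccl20 (−0.047), and Cx3cr1 (−0.41) beside Cx3cl1 (0.18). Pairs that changed together or apart were not counted. In OL the count was 7 and 6, because Ccr4 no longer passed the test against 0.

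The other genes of the pathway had shares near those of all regions. All 46 listed genes, among them atypical receptors, Cx3cr1, Pf4, Ppbp, signalling genes and inducers of chemokines, were in the table. In OPC 9 were above 0 and 35 below (19.6% and 76.1%, beside 25.5% and 71.4% of all regions). Between media 10 were higher in OL and 6 lower (21.7% and 13.04%, beside 23% and 10.9%). Ackr3, the scavenging receptor of Cxcl12, scored −2.28, −2.47 and −2.38 in OPC and −1.79, −2.14 and −2.06 in OL, a difference of 0.38 ± 0.11 (limma SE, n = 3 and 3), with an adjusted p of 0.0252. It was lost under quantile normalization and without OL library 18 or OPC library 9 or 10 (adjusted p up to 0.0847). The scavengers Ackr1 and Ackr2 went the other way, by −0.48 (adjusted p = 0.0393) and −0.38 (adjusted p = 0.0107), and the call for Ackr1 was lost without OPC library 8, 9 or 10 or OL library 19 or 20 (adjusted p up to 0.116). Mif, a cytokine that also binds Cxcr2 and Cxcr4, had the largest rise of the list, with −2.15, −1.88 and −2.21 in OPC and −1.002, −1.33 and −1.29 in OL and a difference of 0.87 (adjusted p = 0.00128). Rgs1, which dampens chemokine receptor signalling, had the highest OPC mean of the list, with 2.18, 2.12 and 1.998 in OPC and 1.79, 1.61 and 1.57 in OL, and a difference of −0.44 (adjusted p = 0.00521).

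Of the inducers, Ifng (interferon gamma) was above 0 and rose from 1.79 to 2.03 (0.24, adjusted p = 0.0374), a call lost without OPC library 8, 9 or 10 or OL library 18 or 19 (adjusted p up to 0.121). Il1b (interleukin 1 beta) fell from −0.12 to −0.58 (−0.46, adjusted p = 0.00207). Rela, the NF-κB subunit, was far below 0 and rose from −2.71 to −2.16 (0.55, adjusted p = 0.00342), and Nfkb1, its partner, did not pass the test (−0.22, adjusted p = 0.092). Tnf and Irf1 were below 0 and did not pass it either.

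DamID scores do not measure RNA, so they cannot show which cells a culture held. Beside 25.5% of all regions above 0 in OPC, 23% higher and 10.9% lower in OL, 0 of 8 OPC genes were above 0 in OPC and 6 were higher in OL, and 1 of 8 myelin genes was above 0, with 1 higher and 2 lower. In OPC, 1 of 10 microglia genes was above 0, with 4 of 8 T cell and other leukocyte genes, 2 of 5 endothelial genes and 1 of 4 astrocyte genes. Higher and lower in OL were 3 and 1 of the microglia list, 1 and 1 of the leukocyte list, 1 and 0 of the endothelial list, and 0 and 1 of the astrocyte list. The part of other cells in the members' scores was not tested.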

How the data were processed

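DamID-seq libraries of OPC and OL cultures were analysed from 1 table. The authors deposited scores per gene region for 6 of 11 libraries. Per the file headers, each is 1 Dam-LMNB1 library against the pooled Dam libraries of its medium. The submitters' processing notes name BWA 0.7.17, cutadapt 1.9.1 and mm10. No source used here describes the step from reads to scores. The authors' deposited table also holds p-values, used as an alternative. The scores as deposited were fitted with limma 3.58.1 (R 4.3.3) over 21534 regions, with a mean for either medium, a trended prior variance and no filter or pseudocount. Two-sided tests of each mean against 0 and of OL minus OPC were adjusted by Benjamini-Hochberg and called at 0.05. The fit was tested on simulated data. Depth is unknown, so no counting error is given.

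Members, gene lists and settings were chosen with earlier results of these data known. All 6 libraries are printed for the highest and lowest OPC mean of clusters with 3 or more members, the 6 largest rises and falls, means that changed sign, and Cxcl12, Cxcr4, Cxcr2, Cxcl1, Ccl2, Cxcl10, Cx3cl1 and Ackr3. One member and 1 listed gene are counted in totals but not reported here. Values of other members were added after they were seen. Alternatives rescaled libraries, dropped the trend, filtered regions, left out each library or changed the threshold. Promoters and gene names came from RefSeq tables (GRCm38.p6), matched by symbol and position.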

Additional observations from a re-analysis of the deposited data

How the results depend on the processing

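Of the 25 members called between media, 14 were called under all 11 refits and 3 under the 10 that held them, and none of the 25 changed sign. Of the 36 not called, 9 changed sign under at least 1 refit. At a stricter limma adjusted p under 0.01, 6 members were higher. Those lower at that threshold included Xcl1, Ccl7, Ccl11, Ccr8, Cxcr6, Ccr1, Ccr1l1 and Ccr2. With a difference over 0.5 required beside an adjusted p under 0.05, 4 were higher and 5 lower. By the authors' deposited adjusted p, 0 were higher and 1 was lower. At an unadjusted p under 0.05, the authors' values gave 12 and 11, and limma gave 16 and 13. The counts at 0.01, with a difference over 0.5 and at an unadjusted p have no share of all regions beside them. They therefore do not show whether members differ from other regions. Quantile normalization gave 11 higher and 13 lower of the 61 members, beside 15.5% and 15.2% of all regions. One region per symbol was a setting chosen after seeing the data. Leaving out each library in turn gave 10 to 14 higher and 10 to 13 lower. Over all regions the leave-outs gave 14.6% to 19.2% higher and 7.77% to 11.9% lower. Every member count against 0 stayed within 1.5 times its value. A gap of 250 kb gave 30 groups of members in place of 28. No paired analysis was possible because OPC and OL libraries share no replicate number. Single calls were also gained for Cxcr1 and Cxcl16 (higher without OPC library 8 and without OL library 19), Cxcl3 (higher without OL library 20), and Ccl5 and Ccl8 (lower without OL library 19 and without OPC library 10). With 3 libraries a medium, pooled Dam and unknown depth, a difference that missed the threshold is not shown to be absent.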
